A study of Mus musculus with 2 samples.

Results

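The genes described here are the Eph receptors and ephrins Epha1, Epha2, Epha4, Epha7, Ephb2, Ephb3, Ephb4, Efna1, Efnb1 and Efnb2, a list of 10 genes given by name. A value was taken from a probe set whose platform annotation carried exactly 1 gene symbol, and where a gene had several such probe sets the one with the highest mean over both arrays was used. By this rule 9 of the 10 genes were measured, out of 14860 genes in all, and Ephb2 was not analysed here. Total RNA came from tracheal epithelial cells grown in culture from mice of 3 weeks of age on a C57 BL/6 × 129sv background. One array was made from wild-type cells (Gprc5a+/+) and 1 from cells with both copies of Gprc5a deleted (Gprc5a-/-). Gprc5a encodes an orphan G protein-coupled receptor that retinoic acid induces. All cells grew untreated, in exponential phase, in K-SFM medium that held bovine pituitary extract at 50 µg/ml and EGF at 5 ng/ml. How many animals or cultures gave each RNA is not given in the sources used here.

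Eph receptors are receptor tyrosine kinases whose ligands, the ephrins, sit on the surface of neighbouring cells. Ephrins of the A class are held in the membrane by a lipid anchor and bind mostly EphA receptors, while those of the B class cross the membrane and bind mostly EphB receptors. Binding signals into both cells, through the receptor and through the ephrin, and the outcome is usually repulsion, sorting or a change in adhesion. In epithelia the family is known for keeping cell populations apart and for acting on cell contacts, and in the nervous system for guiding axons.

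Each value below is the deposited log2 RMA value of 1 array, and differences are given as knockout minus wild type, so that a negative sign means a lower value in the knockout cells. With 1 array per genotype there is no error, no test and no p-value, so a difference describes these 2 RNA samples and whatever separates them besides the genotype. A gene was counted as higher or lower when it differed by at least 2-fold and its higher value exceeded 6.76, the median over both arrays of every probe set that carried a symbol, and 7943 genes passed this level limit. The level of genes that are not expressed was judged from 800 olfactory and vomeronasal receptor genes, whose 95th percentile was 5.05 and is called the background level.

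One of the 9 measured genes, Epha7, was far lower in the knockout cells, and the other 8 lay within 1.39-fold between the arrays. None of the 9 was at least 2-fold higher, beside 4.62% of all genes above the level limit, and 1 was at least 2-fold lower, beside 2.97%. All 9 passed the level limit, Epha7 by its wild-type value only. The median difference of the 9 genes was -0.22 on the log2 scale. Over all genes the median was -0.03, and over those above the level limit it was 0.02. The mean of the 9 genes, -0.62, was set by Epha7. Without Epha7 the median was -0.11 and the mean -0.04, with 4 genes higher and 4 lower in the knockout cells.

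**Figure D1:**
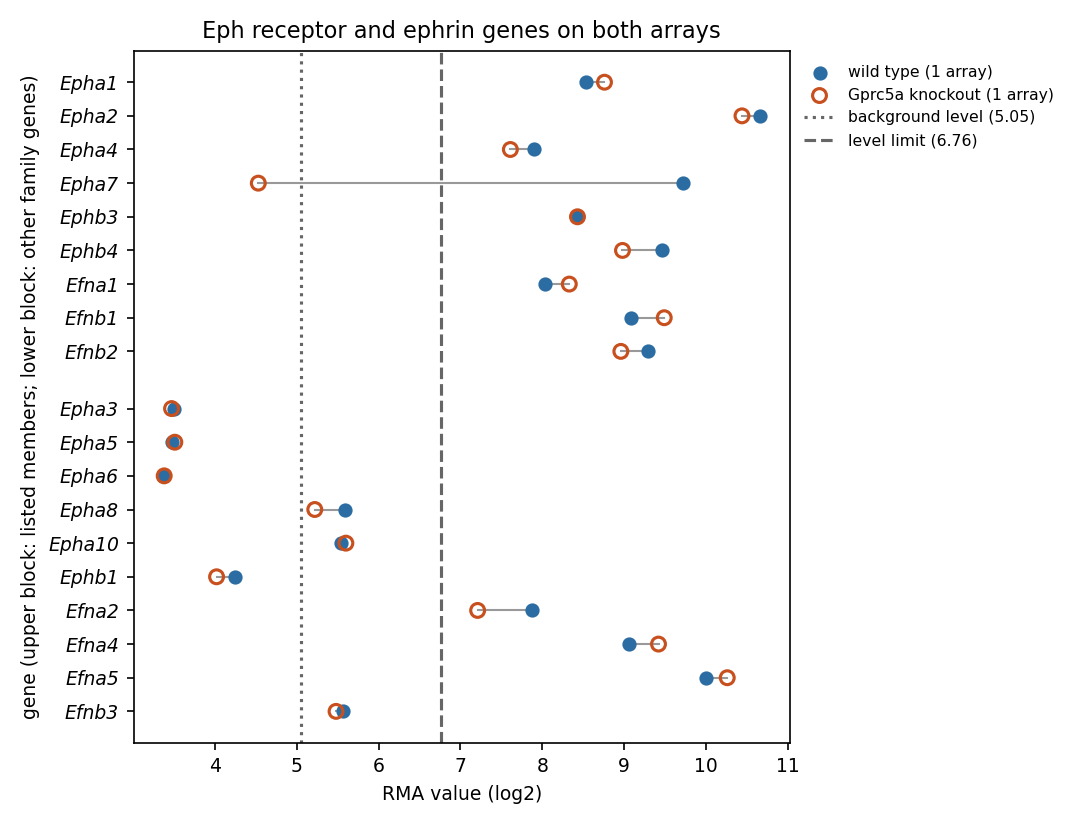
RMA values (log2, horizontal axis) of each measured Eph receptor and ephrin gene in the wild-type array (filled points) and the Gprc5a knockout array (open points), joined by a line for each gene. The dotted line is the background level of 5.05 and the dashed line the level limit of 6.76. Epha7 runs from 9.72 to 4.53, while for every other gene the points lie within 1.60-fold of each other.

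Epha7, a receptor for A-class ephrins studied mostly in the patterning of the nervous system, had a value of 9.72 in the wild-type cells and 4.53 in the knockout cells. The difference of -5.20 corresponds to 36.7-fold. In the wild-type cells none of the 800 background genes reached the value of Epha7, whereas in the knockout cells 9.25% of them lay above it. The signal was above every background gene in one sample and among the background genes in the other. With values below 5.05 raised to 5.05 on both arrays the difference was -4.67, or 25.5-fold. In RNA from bulk cultures, fewer cells carrying a transcript and less of it per cell cannot be told apart.

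The deleted gene, Gprc5a, was at 9.49 in the wild-type cells and 4.05, below the background level, in the knockout cells. Its difference was -5.44, and -4.43 or 21.6-fold with low values raised to the background level. The 3 genes above the level limit whose difference was nearest to that of Epha7, a likeness over only 2 arrays, were Arhgdib, Sgce and Sostdc1. Arhgdib differed by -5.13, Sgce, a sarcoglycan gene, by -5.31, and Sostdc1, a secreted antagonist of BMP and WNT signals, by -4.97. The knockout values of these 3 genes, as that of Epha7, lay below the background level, so the closeness rests on signal that has no order. With low values raised the differences were -4.05 for Arhgdib, -4.12 for Sgce and -4.50 for Sostdc1.

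None of the genes next to Epha7 on chromosome 4 reached a 2-fold difference. They were looked up after the value of Epha7 was known, in the RefSeq gene order of GRCm38.p6 among genes on the array. On one side Manea, an enzyme gene of glycan processing, was at 8.86 in wild-type and 9.44 in knockout cells. Map3k7, the gene of the kinase TAK1 on the other side, was at 9.80 and 9.92. Across the 3 genes on either side the differences ran from -0.31 for Fhl5 to 0.58 for Manea. Fhl5, Bach2 and Gja10 were not above the level limit and could not be counted. Of these, Fhl5, at 2.59 and 2.27, and Gja10, at 3.24 and 3.15, lay below the background level on both arrays. Among all genes above the level limit 4.62% were at least 2-fold higher and 2.97% at least 2-fold lower.

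The sequence upstream of the start of Epha7 is shown because Epha7 carries the one large difference, and that of Epha2 because it is the same class of receptor with little difference. Each is the 250 bases before an annotated start, from RefSeq (GRCm38.p6), read 5′ to 3′ on the plus strand. Epha7 lies at chr4:28812881-28813130, for the start with the lower coordinate of 2, and Epha2 at chr4:141300971-141301220. Capitals mark the GC box (GGGCGG) and the CCAAT box (CCAAT), searched on both strands. No TATA box (TATAAA) was found in either window.
Epha7: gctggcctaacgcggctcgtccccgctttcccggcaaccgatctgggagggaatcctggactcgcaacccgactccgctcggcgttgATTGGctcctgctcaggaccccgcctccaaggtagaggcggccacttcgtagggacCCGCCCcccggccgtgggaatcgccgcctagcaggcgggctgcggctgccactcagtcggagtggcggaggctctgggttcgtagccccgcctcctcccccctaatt
Epha2: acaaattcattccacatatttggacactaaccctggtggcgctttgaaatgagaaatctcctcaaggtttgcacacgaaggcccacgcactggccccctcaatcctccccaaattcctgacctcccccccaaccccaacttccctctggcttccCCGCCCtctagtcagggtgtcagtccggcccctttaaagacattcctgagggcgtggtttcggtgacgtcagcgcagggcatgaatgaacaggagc

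The Epha7 window had a GC content of 69.2% and 25 CG pairs, and it held 1 GC box and 1 CCAAT box. The Epha2 window had a GC content of 55.6% with 9 CG pairs and held 1 GC box. Over the windows of 27025 genes, a set not limited to the genes measured here, the median GC content was 52% and the median number of CG pairs 5. All 10 listed genes had a window in the RefSeq table. A GC box was present in 8 of these 10 windows and in 32.7% of all windows, a CCAAT box in 6 of 10 and in 34.2%, and a TATA box in 1 of 10, that of Efnb2, and in 12.9%. Their GC content ran from 54.4% for Epha1 to 72% for Efnb2, whose window held 27 CG pairs. The window of Epha4, an EphA receptor that also differed little, had a GC content of 66% and 14 CG pairs. Like that of Epha7 it held 1 GC box and 1 CCAAT box. These matches describe letters and say nothing of binding.

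**Figure D2:**
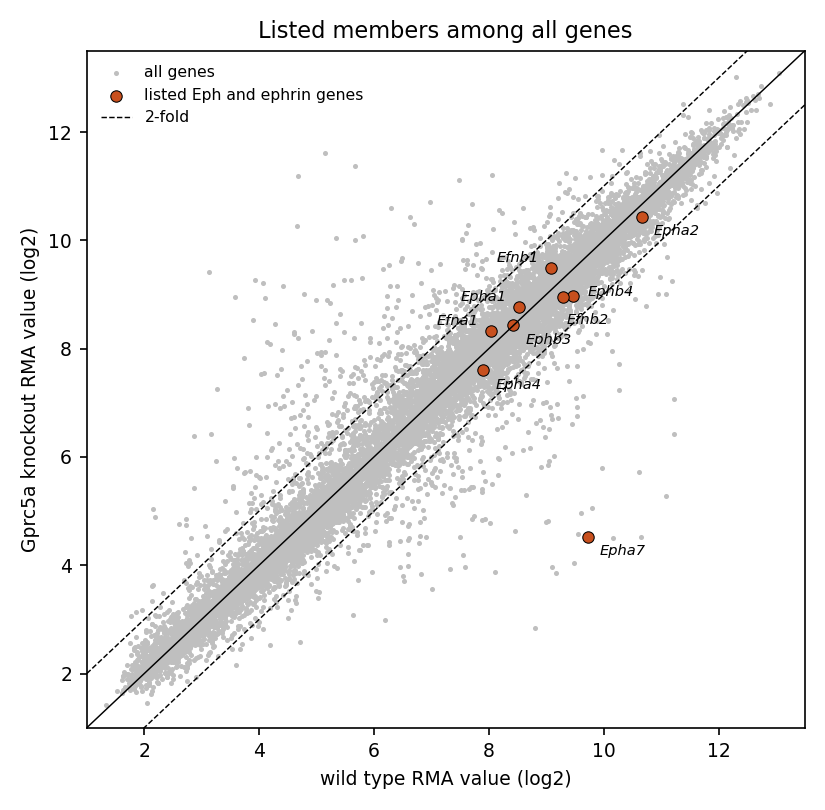
Wild-type RMA value (log2, horizontal axis) against Gprc5a knockout RMA value (log2, vertical axis) for all 14860 genes in grey and the 9 measured Eph and ephrin genes in red, with 1 array per genotype. The solid line marks equal values and the dashed lines a 2-fold difference. Epha7 lies far below the lower dashed line and the other 8 red points lie between the dashed lines.

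The other EphA receptors differed little. Epha2, a receptor of many epithelia that is found at cell contacts, was at 10.66 in the wild-type cells and 10.44 in the knockout cells, a difference of -0.22. Its second probe set, at 5.79 and 5.45, was below the level limit on both arrays and gave a difference of -0.35, of the same sign. Epha1, the receptor that gave the family its name, was at 8.53 and 8.76, 1.17-fold higher in the knockout. Epha4, which is unusual in binding ephrins of both classes, was at 7.90 and 7.61, 1.22-fold lower. Differences of this size were common on these arrays. Of all genes above the level limit, 51.8% differed by more than Epha1, 52.9% by more than Epha2 and 43% by more than Epha4, in either direction.

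The EphB receptors included the member with the smallest difference. Ephb3, which in the mouse intestine helps to place cells along the crypt, was at 8.42 in the wild-type cells and 8.43 in the knockout cells. Ephb4, the receptor of ephrin-B2 known from veins, was at 9.46 and 8.98, a difference of -0.47 or 1.39-fold. That was the second-largest difference of the 9 genes, and 25% of genes above the level limit differed by more. With the threshold lowered to 1.5-fold, Epha7 was still the single listed gene counted as lower and none was counted as higher, beside 7.70% and 11.0% of genes above the level limit.

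The 3 listed ephrins differed in both directions and by less than 1.5-fold. Efna1, the lipid-anchored ligand best known for activating Epha2, was at 8.03 in the wild-type cells and 8.33 in the knockout cells, 1.23-fold higher. Efnb1, a transmembrane ligand of EphB receptors, was at 9.08 and 9.49, 1.33-fold higher. Efnb2, the transmembrane ligand known from arteries, was at 9.29 and 8.96, 1.25-fold lower. In the ligand and receptor pair Efnb2 and Ephb4 both genes were lower in the knockout cells, with differences of -0.33 and -0.47, and in the pair Efna1 and Epha2 the ligand was higher and the receptor lower. Genes with a larger absolute difference made up 41.3% of those above the level limit for Efna1, 29.9% for Efnb1 and 38.1% for Efnb2.

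The remaining genes of the family gave no further difference of 2-fold. Of these 12 genes, 10 were measured by the same rule, and 3 of them, all A-class ephrins, were above the level limit. Efna5 was at 9.999 and 10.26 and Efna4 at 9.06 and 9.42, 1.20-fold and 1.29-fold higher in the knockout cells. Efna2 was at 7.88 in the wild-type cells and 7.21 in the knockout cells, a difference of -0.67 or 1.60-fold. This was the largest difference of the family after Epha7, and 15.2% of genes above the level limit differed by more.

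The other 7 of the 10 were not above the level limit in either sample. Epha3, Epha5, Epha6 and Ephb1 lay below the background level on both arrays, from 3.37 to 4.25 in the wild-type cells and from 3.38 to 4.02 in the knockout cells. Epha8, at 5.59 and 5.22, Epha10, at 5.54 and 5.60, and Efnb3, at 5.56 and 5.48, lay between the background level and the level limit. Without the level limit the count over these 10 genes was still 0 in each direction, beside 3.34% of all genes higher and 2.11% lower. Ephb6 shared its probe set with Mon2, at 7.07 and 7.27, and this value cannot be assigned to either gene. Efna3 was not analysed here.

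Signalling partners of Eph receptors and ephrins were examined as 3 lists with 38 genes, of which 32 were measured and 28 were above the level limit. Of these 28 genes, 1 was at least 2-fold higher and 1 at least 2-fold lower in the knockout cells, and 26 lay between. A count of 1 in 28 is near the shares of all genes given above, 4.62% higher and 2.97% lower. The median difference of the 32 genes was 0.10, beside -0.03 over all genes.

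Among SH2 adaptors and kinases, 14 of 17 genes were measured and both genes past 2-fold belonged to this list. Grb10, an adaptor that binds activated receptor tyrosine kinases and restrains insulin and growth factor signals, was at 9.04 in the wild-type cells and 5.85 in the knockout cells, 9.10-fold lower. Pik3r1, the regulatory subunit p85 alpha of phosphoinositide 3-kinase, was at 9.67 and 10.82, 2.22-fold higher. Grb10 passed the level limit by its wild-type value only. The list's median difference was -0.02, and 7 genes were higher and 7 lower.

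Phosphatases, proteases and turnover factors were all measured, 10 of 10, and had a median difference of -0.03. None reached 2-fold. Sdcbp, the gene of syntenin, a PDZ protein that binds B-class ephrins, was 1.38-fold higher, and Anks1, a regulator of Eph receptor turnover, was 1.22-fold higher. Adam10, the protease that cleaves ephrins after receptor binding, was at 10.32 and 10.20. In the list of PDZ and junction partners 8 of 11 genes were measured, and all 8 had a higher value in the knockout cells, by 0.06 to 0.86 on the log2 scale with a median of 0.29. Of all 14860 genes 6835 had a higher value in the knockout cells, and of the 7943 above the level limit 4113 did; Pard6a, at 6.25 and 6.58, was the one of the 8 not above that limit. Cldn1, a tight junction claudin, was at 9.90 and 10.76, 1.81-fold higher, and the polarity gene Pard6b was 1.35-fold higher. Cdh1, E-cadherin, was at 12.19 and 12.25.

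**Figure D3:**
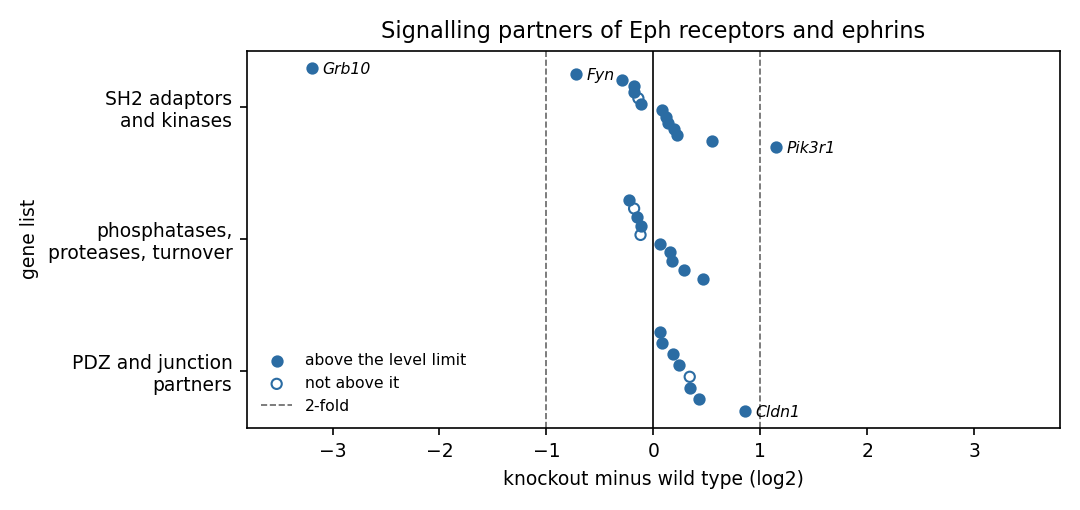
Knockout minus wild-type difference (log2, horizontal axis) of each measured gene in the 3 lists of signalling partners, with filled points above the level limit and open points not above it. The dashed lines mark a 2-fold difference, and names are given for differences beyond 0.7. Grb10 at -3.19 and Pik3r1 at 1.15 are the points outside the dashed lines.

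All 6 pan-epithelial markers were above the level limit, with Epcam at 12.30 and 11.89 and Cdh1 as given above. Of these 6, Cldn7, at 5.66 and 8.19, and Elf3, at 7.28 and 8.45, had knockout values more than 2-fold above the wild type. This stands beside 4.62% of all genes above the limit, and the other 4 markers lay within 1.33-fold. Cldn7 passed the limit by its knockout value only. Of 9 basal cell markers 8 were above the level limit, with the keratin genes Krt5 at 12.71 and 12.62 and Krt17 at 12.90 and 12.51. Ngfr was not, at 5.98 and 5.66. Krt14, at 12.49 and 12.59, and Krt15, at 6.91 and 7.60, were higher in the knockout cells, and the other 7 were lower. The differences of these 7 ran from -0.03 for Itgb4 to -4.88 for Pdpn, and the median over the 9 markers was -0.18. The values of the 9 genes summed on the linear scale came to 29090 in wild-type cells and 25200 in knockout cells, and Pdpn was the one gene past 2-fold, 29.5-fold lower, beside 2.97% of all genes above the level limit. Several luminal markers were higher. Of the 9 listed 6 were measured, and the 3 above the level limit, Krt18, Cyp2f2 and Foxj1, were at least 2-fold higher, beside 4.62% of all genes above it, with Krt18 at 5.15 and 11.61 and Cyp2f2 at 6.48 and 9.63. These 3 passed the limit by their knockout values only. The sum over all 6 measured luminal markers was 242.7 in wild-type cells and 4450 in knockout cells, and Krt18 made up most of the knockout sum. Of the 6, Krt19, Scgb1a1 and Scgb3a2 were at or below the background level in both. The part of these differences between the cultures in the value of Epha7 was not tested.

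Markers of other cell types were mostly at low values in both samples. None of the 5 measured neural and glial markers was above the level limit, and their sums were 193 and 193.4, with Sox10 at 5.90 and 5.82 and Rbfox3 at 5.72 and 5.39. The same held for 8 fibroblast markers, whose sums were 280.7 and 255.9, with Col1a1 at 6.15 and 6.09 and Col1a2 at 5.98 and 5.74, and for 7 endothelial markers, whose sums were 147.4 and 139.2, with Tie1 at 5.06 and 5.00 and Vwf at 5.08 and 4.90. Of 6 immune markers none was above the limit, with Cd68 at 6.63 and 6.67 and Cd14 at 5.44 and 6.39. Of 7 smooth muscle and cartilage markers Sox9, at 10.14 and 9.70, and Acta2, at 5.16 and 7.93, were above it. Acta2 was 6.86-fold higher in the knockout cells, beside 4.62% of all genes above the limit at least 2-fold higher. It passed the limit by its knockout value only. The other 6 of the 7 were lower in the knockout cells, with differences no lower than -0.44, and 3 of the 7 were at or below the background level in both.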

How the data were processed

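The deposited values are log2 values per probe set. RMA and Affymetrix Expression Console made them, per the submitters' processing notes, with no versions given. The sources used here do not give the authors' filters or genome build, or whether other arrays were normalized with these 2. The sorted columns differ by at most 0.17, as after quantile normalization, so a change in total RNA cannot be seen. No detection calls were used.

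Of 23332 probe sets, 14996 carried 1 gene symbol in the platform annotation, for 14860 genes. Differences, folds, ranks and counts were computed in Python 3.11.15 with numpy 2.4.6 and pandas 2.3.3. The counting was checked on simulated data with a chosen spread, which says nothing of the error in the values of these 2 arrays. The named genes were all listed members, the other measured family genes, in each list of signalling partners the genes past 2-fold or else the 2 with the largest difference above the level limit, the 3 genes nearest to Epha7 in difference, Gprc5a, and up to 2 bright genes of each marker list; others were chosen after their values were seen. The members and lists were chosen with earlier results of these data known. Alternatives covered low values, centring, scaling, probe set choice, level limit and threshold. A further list of signalling partners is not reported here. Upstream sequences came from RefSeq.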

Additional observations from a re-analysis of the deposited data

How the results depend on the processing

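Of 114 values computed under the alternative settings, 109 stayed within a factor of 1.5 of the reported fold (for log2 differences) or count. The other 5 moved further. A change of sign was looked for only in Epha7, the 1 listed gene counted, and was not seen. Many of the values could not move. Every measured listed gene but Epha2 has 1 probe set, and among them only Epha7 has a value below the background level. The difference of Epha7 was -3.99 with 32 added to both values on the linear scale, since its knockout value lies at background, and it ran from -5.20 to -3.99 over all settings. The differences of the other 8 listed genes stayed between -0.50 (Ephb4) and 0.44 (Efnb1), and Ephb3 ran from -0.06 to 0.04, so its sign is not settled. The mean of the 9 was -0.62 against a median of -0.22. At 1.5-fold, 1 of the 3 other family genes above the level limit (Efna2) counted as lower. Of the 28 signalling partners above it, 2 counted as higher and 2 as lower. Among all genes above it, 11.0% counted as higher and 7.70% as lower. At 3-fold 0 partners counted as higher and 1, Grb10, as lower, and the share of all genes past 3-fold was not computed. The counts of listed genes, 0 higher and 1 lower, were the same under all settings run for them.

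No paired analysis was possible because each genotype has 1 array. No replicate was left out for the same reason. The number of arrays limits the precision, and small values near the background level carry no order.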
